A study of Caenorhabditis elegans with 6 samples.

Results

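The adult transcriptome of Caenorhabditis elegans kept on Escherichia coli BW25113 is described here from 3 whole-body RNA sequencing libraries. They were chosen by their diet label and are 3 of the 6 libraries of a series that asks how bacterial genes bear on the life span of the worm. BW25113 is a common laboratory strain of E. coli. Synchronized worms grown at 20 °C were placed on it at larval stage 4, the last larval stage, and total RNA was taken from them as adults with Trizol. The labels give no worm strain, no sex and no adult age in days, and no mutation or drug is named for these worms. They do not say whether the 3 replicates came from separate cultures, so the spread below is that between these libraries, which may be technical. All 18811 genes of the deposited table are covered, and no other diet is compared.

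The adult hermaphrodite worm is a small animal with a large reproductive load. Its intestine makes yolk proteins, the vitellogenins, and passes them to growing oocytes, which are packed with maternal RNA and ribosomes. Sperm are made at the last larval stage and stored, after which the germline switches to oocytes. The body is covered by a collagen cuticle that is laid down anew at each moult, with some collagens made only for the adult cuticle. Body wall muscle lies beneath the epidermis, and a pumping pharynx feeds the intestine.

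The libraries were of like depth, with 22388609, 22330178 and 22493245 estimated counts in replicates 1, 2 and 3. At this depth a gene listed at 0 could still have up to 3 counts, or 0.138, 0.145 and 0.120 of the scaled count used below (CPM), which covers counting error only. A count was listed for 15844, 15390 and 15816 genes, and 1872 genes were at 0 in all 3 libraries. Levels are given in 2 units. FPKM, the deposited count scaled to gene length and library size, is used to compare genes with each other, and CPM, obtained with TMM factors that correct for library composition, is used to compare libraries. Where FPKM is given for each library it carries no such correction, and its sum was 1113653, 1065011 and 968954 in replicates 1, 2 and 3. An order or evenness of libraries in FPKM can therefore differ from that in CPM. Mean values carry the SD over the 3 libraries.

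Detection was set at 1 FPKM in every library. By that rule 9160 genes, or 48.7%, were detected, and their median level was 10.9 FPKM. The abundance was steeply graded. Only 195 genes had a mean above 1000 FPKM, yet they held 57.7 ± 2.50% of the counts (SD, n = 3). A further 722 genes between 100 and 1000 FPKM held 21.1 ± 0.362% of the counts. The 5170 genes from 1 to 10 FPKM together held 3.86 ± 0.730%, and 6946 genes lay above 0 but at no more than 1 FPKM.

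The single most abundant gene took 1.96 ± 0.196% of the counts and the 100 most abundant took 46.7 ± 1.31% (SD, n = 3). Those 100 genes, chosen by their mean share, held 47.1%, 47.8% and 45.2% in replicates 1, 2 and 3. For the 10 most abundant the shares were 10.4%, 11.7% and 14.3%, so replicate 3 was the most concentrated at the very top while being the least concentrated over 100 genes. It needed 126 genes to reach 50% of its counts, against 112 and 111 in replicates 1 and 2.

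Ranked by mean FPKM, the top of the list was made of the translation machinery, cuticle collagens and a few genes of energy supply and of the eggshell. The first gene was rpl-31, which encodes a protein of the large ribosomal subunit, with 17792, 18564 and 16702 FPKM in replicates 1, 2 and 3. Next came Y82E9BR.3, annotated as a lipid-binding subunit of the mitochondrial ATP synthase, with 13436, 10874 and 10725 FPKM, and rpl-21 with 11713, 12756 and 8659 FPKM. The fourth gene was ndk-1, a nucleoside diphosphate kinase, which keeps up the supply of nucleoside triphosphates, with 12003, 11689 and 8052 FPKM. The elongation factor eef-1A.1, which brings aminoacyl-tRNA to the ribosome, had 10717, 10964 and 9020 FPKM. Replicate 3 was the lowest of the 3 for each of these 5 genes.

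Other genes among the first 25 were the collagens col-140, col-124 and col-122 and the eggshell gene perm-2. The collagen col-140 (chromosome V, 5835855 to 5836834, WBcel235) had 10589, 9518 and 9275 FPKM. By contrast col-124 (chromosome IV, 10216451 to 10217617) had 6607, 8050 and 13647 FPKM, with replicate 3 far above the others. The eggshell permeability gene perm-2 (chromosome IV, 1126790 to 1128865) had 8673, 9803 and 6160 FPKM and was lowest in replicate 3. Ribosomal protein genes made up 18 of the 25. Among them rpl-2 was close to level in FPKM, before TMM scaling, with 7019, 7054 and 7038 FPKM. By the same unit rpl-36 was uneven, with 10249, 6255 and 4984 FPKM.

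**Figure D1:**
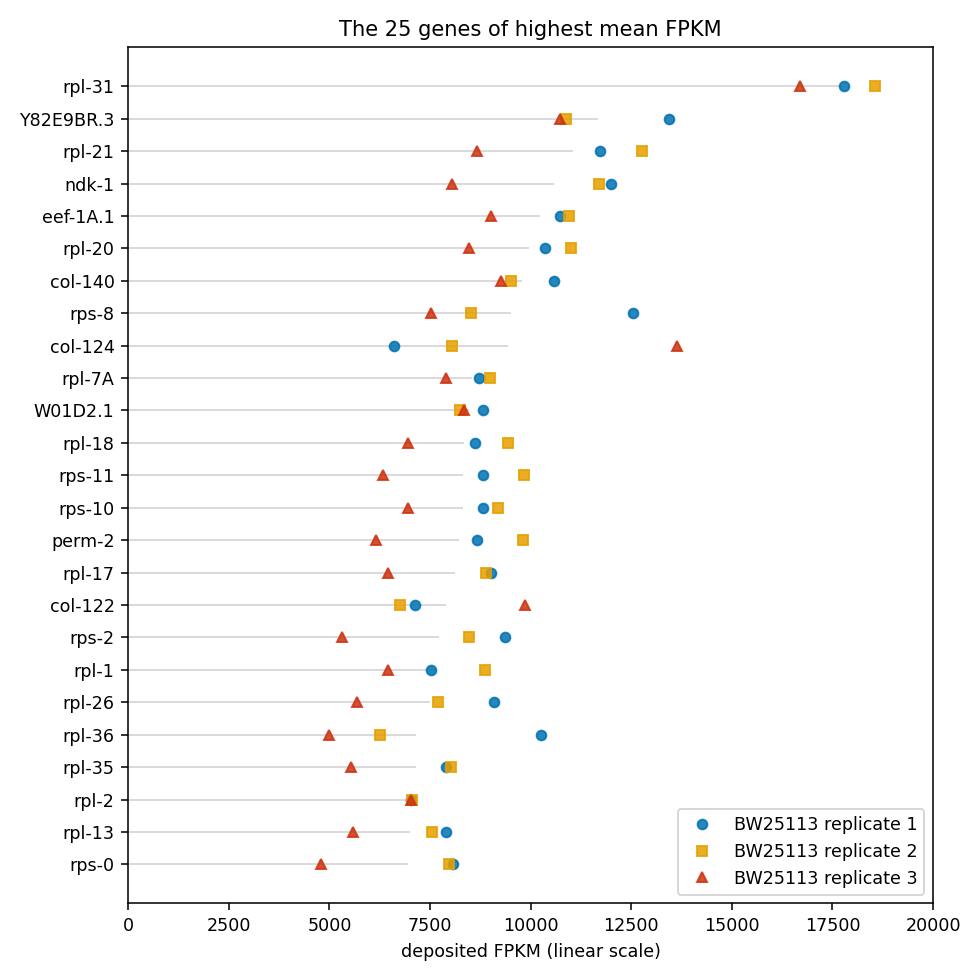
Deposited FPKM, on a linear axis from 0, of the 25 genes of highest mean FPKM, with 1 marker for each of the 3 BW25113 libraries and a grey line from 0 to their mean. Most ribosomal protein genes lie lowest in replicate 3, while col-124 and col-122 lie highest in it.

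The first 100 genes by FPKM included 64 of the cytosolic ribosomal list, 12 cuticle collagens, 2 vitellogenins and 2 fatty acid and retinol binding proteins. In all, 88 of the 100 belonged to at least 1 of 49 gene lists. Their messages were short, with a median exon length of 664 bases against 1385.5 bases in the other detected genes, and a median of 3 exons against 6. The ranking was shared among libraries: 96 of the first 100 genes were the same in replicates 1 and 2, 89 in replicates 1 and 3, 91 in replicates 2 and 3, and 89 in all 3. FPKM divides by length, whereas a ranking by share of counts favours long messages.

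By share of counts the vitellogenins led. The 2 largest shares belonged to vit-2, with 1.76%, 1.95% and 2.16% of the counts in replicates 1, 2 and 3, and vit-6, with 1.60%, 1.71% and 2.40%. By this share both were lowest in replicate 1 and highest in replicate 3. After TMM scaling vit-2 was instead highest in replicate 2, with 18165, 21096 and 19396 CPM, while vit-6 kept its order, with 16517, 18480 and 21543 CPM. In FPKM they ranked only 75 and 78, with 4000 ± 401 and 3784 ± 853 FPKM (SD, n = 3). The first 25 genes of the 2 rankings had 14 genes in common, and the first 100 had 76. Genes that entered the first 25 only by share included vit-3, vit-4 and vit-5, the collagens col-93 and col-80, the actin act-1, and K08D12.6, with 1646, 1526 and 5458 FPKM.

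Grouped by function, translation was the largest class. The 82 cytosolic ribosomal protein genes held 25.7%, 24.6% and 19.3% of the counts in replicates 1, 2 and 3, a mean of 23.2 ± 3.45% (SD, n = 3), and 38.7% of the summed FPKM. Of these genes 81 were detected, and the median over all 82 was 5023 FPKM. The share was lowest in replicate 3. After TMM scaling so were 72 of the 81 single genes, against 37.6% of all genes averaging 5 CPM or more. The most uneven ribosomal protein gene was rpl-33, with 2660, 3306 and 1216 CPM. Translation factors added 3.43 ± 0.295%, with 45 of 45 genes detected.

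Energy metabolism was the next large functional block. Nuclear-encoded respiratory chain genes held 2.62%, 2.44% and 2.12% of the counts, with 36 of 37 detected. Replicate 3 was lowest in CPM for 34 of these 36 genes, against 37.6% of all genes averaging 5 CPM or more. The highest of the respiratory chain list was ant-1.1, an ADP/ATP carrier of the inner mitochondrial membrane, with 4792, 4797 and 3642 FPKM. Glycolysis and gluconeogenesis held 0.832 ± 0.101% of the counts, led by the aldolase aldo-2 at 1532 ± 436 FPKM, and the tricarboxylic acid and glyoxylate cycles held 0.774 ± 0.0666%, led by the malate dehydrogenase mdh-1 at 874 ± 206 FPKM (SD, n = 3). Of these lists 22 of 23 and 25 of 25 genes were detected.

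Protein folding and turnover were also well represented. Chaperones held 1.69 ± 0.0445% of the counts, with 27 of 28 detected, and were led by the cyclophilin cyn-7 with 4536, 2875 and 2301 FPKM. The small heat shock protein gene sip-1, a chaperone of oocytes and embryos, stood at 5389, 4312 and 3004 FPKM, whereas only 9 of 15 members of that list were detected. The proteasome was detected in full, 32 of 32 genes, at 0.541 ± 0.0267% of the counts. Digestive and lysosomal proteases held 1.37 ± 0.201%, led by the aspartyl protease asp-6 with 2706, 2182 and 1417 FPKM.

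**Figure D2:**
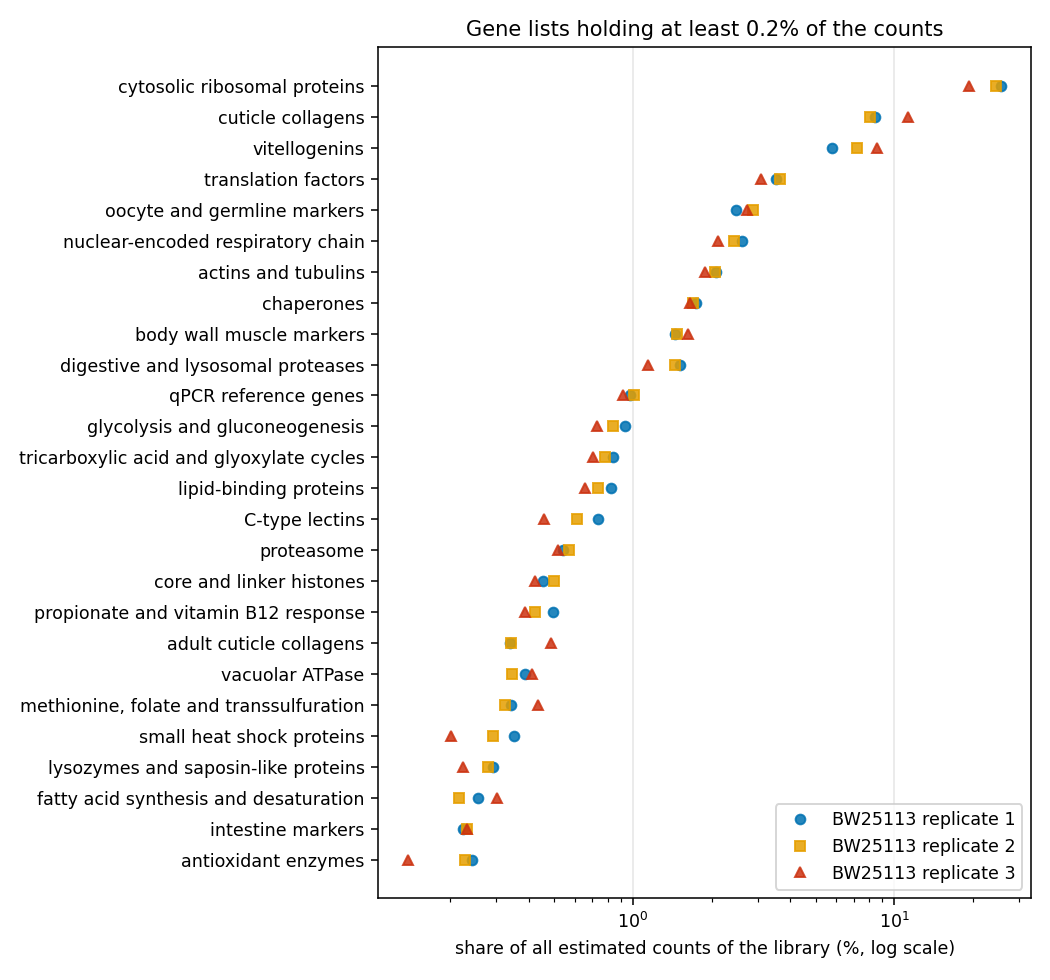
Share of all estimated counts, in percent on a log axis, for each gene list that held at least 0.2%, with 1 marker per BW25113 library. Ribosomal proteins (19.3% to 25.7%), cuticle collagens (8.05% to 11.3%) and vitellogenins (5.78% to 8.62%) lie apart from the other lists, and replicate 3 is the lowest of the 3 for the first and the highest for the other 2.

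The yolk genes were detected in full. Together the 6 vitellogenins held 5.78%, 7.22% and 8.62% of the counts in replicates 1, 2 and 3, but because their messages are long they made up 1.41% of the summed FPKM. The summed level was 11739, 14677 and 17506 FPKM, in the same order. After TMM scaling replicate 1 was the lowest for 6 of 6 genes, as it was for 43.6% of all genes averaging 5 CPM or more. The highest was replicate 2 for 4 of the 6 vitellogenins and replicate 3 for vit-1 and vit-6. The genes had a median log2 deviation from the mean of the libraries of -0.35, 0.19 and 0.16, against -0.04, 0.05 and 0.01 over all genes with at least 5 CPM. The widest gap was that of vit-1, with 442, 783 and 969 FPKM, a 1.92-fold range in CPM. No vitellogenin reached 2-fold in CPM.

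The vitellogenins vit-1 to vit-5 lie on chromosome X and vit-6 lies on chromosome IV (8261157 to 8266459). The genes vit-4 (X, 3558769 to 3563965) and vit-3 (X, 3567355 to 3572549) are neighbours. Counts of all but vit-6 were not whole numbers in at least 1 library, as happens where reads are divided among near-identical copies, so single values within vit-1 to vit-5 are uncertain. Across all genes, 1952, or 10.4%, had such counts, and they held 29.8% of all counts.

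The cuticle collagens held 9.25 ± 1.77% of the counts (SD, n = 3), with 8.42%, 8.05% and 11.3% in replicates 1, 2 and 3. Of 162 genes, 102 were detected and 4 were at 0 in every library. The adult collagen col-19, whose start is a classical marker of the move from larva to adult, was high in all 3 libraries, with 2722, 2779 and 3891 FPKM. The other collagens listed for the adult cuticle were far lower. For col-7 the values were 27.4, 18.1 and 59.9 FPKM, and for col-62 they were 8.77, 5.93 and 24.7 FPKM. The strut collagens bli-1, with 0.230, 0.0900 and 0.940 FPKM, and bli-2, with 1.91, 0.510 and 2.04 FPKM, were not detected by the rule of 1 FPKM in all 3.

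Heterochronic genes, which time the larval stages, were present at low to middling levels, with 6 of 7 detected. The highest was lin-41, an RNA-binding regulator that also acts in oocytes, with 40.4, 56.1 and 74.6 FPKM. The transcription factor lin-29, which drives the larva-to-adult switch in the epidermis, stood at 1.09, 1.25 and 1.97 FPKM. For hbl-1, a transcription factor of early larval fates, replicates 1, 2 and 3 had 9.01, 9.51 and 4.59 FPKM.

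Marker lists were used to check the label of whole adult bodies, and the RNA held markers of every main tissue. The 39 oocyte and germline markers were all detected, with a median of 159 FPKM and 2.70 ± 0.193% of the counts (SD, n = 3). Behind perm-2 stood perm-4 at 2530 ± 238 FPKM, cpg-2, a chondroitin proteoglycan of the eggshell, at 2060 ± 536 FPKM, and cpg-1 at 1301 ± 310 FPKM. The cyclin gene cyb-3 had 961 ± 92.5 FPKM, and the maternal RNA-binding regulators pos-1 and mex-5 had 697 ± 255 and 513 ± 103.9 FPKM. The germline stem cell receptor glp-1 was lower, with 5.32, 8.97 and 15.9 FPKM, the widest relative range of the list at 2.61-fold in CPM.

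Across the germline list replicate 1 was the lowest library for 27 of 39 genes, as it was for 43.6% of all genes averaging 5 CPM or more. The order replicate 3 above 2 above 1 held for 22 of 39, or 56.4%, against 32.5% of all 7192 genes with at least 5 CPM. The eggshell genes perm-2, cpg-2 and cpg-3 were instead lowest in replicate 3. Among these, cpg-2 had 2511, 2201 and 1468 FPKM. The vitelline layer gene cbd-1 went the other way, with 155, 259 and 430 FPKM.

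Sperm markers were fewer and lower, with 16 of 27 detected and 0.0733 ± 0.0263% of the counts. The highest was msp-19, a major sperm protein gene, with 697, 593 and 1218 FPKM. Other major sperm protein genes followed, such as msp-81 with 266, 202 and 414 FPKM. Of the 14 sperm genes with at least 5 CPM, 12 had the order replicate 3 above 1 above 2, which 7.95% of all such genes had. The msp genes share near-identical sequences and none of those named had whole counts in all libraries, so these genes do not stand as separate measurements. In bulk RNA, fewer cells of a type and less RNA per cell cannot be told apart.

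Genes switched on in the early embryo were at the edge of detection, with 9 of 23 detected, a median of 0.690 FPKM and 0.0182 ± 0.00434% of the counts. Their highest member was skn-1, which is also supplied maternally, with 33.8, 49.5 and 78.0 FPKM. The transcript sdz-24 had 14.1, 8.54 and 7.72 FPKM, the reverse order.

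No marker of males was detected. Of the 12 genes, 0 were detected and 5 were at 0 in all 3 libraries, among them lov-1 and pkd-2, polycystin genes of male sensory neurons. The highest was mab-3, a transcription factor of male development, with 0.130, 0.170 and 0.180 FPKM. Their summed level was 0.300, 0.490 and 0.750 FPKM.

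Body wall muscle markers were detected in full, 22 of 22, with 1.45%, 1.48% and 1.62% of the counts in replicates 1, 2 and 3. The tropomyosin lev-11 led with 2303, 2273 and 2140 FPKM. The myosin light chain mlc-2 had 2390, 1985 and 1344 FPKM and was lowest in replicate 3, whereas the body wall myosin heavy chain unc-54 had 335, 453 and 578 FPKM and was lowest in replicate 1. The giant protein gene unc-22, which encodes twitchin, also had its lowest level in replicate 1, with 1.5, 2.62 and 5.53 FPKM.

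Intestine markers outside the yolk genes held 0.224%, 0.232% and 0.232% of the counts, with 18 of 20 detected and a median of 43.6 FPKM. The cathepsin B gene cpr-1 had 532, 654 and 355 FPKM and the brush border actin act-5 had 512, 455 and 553 FPKM. The fatty acid desaturase fat-7 was the least even of the list, with 25.2, 49.98 and 63.0 FPKM. Fatty acid binding is another intestinal and body cavity task, and far-2, which encodes a fatty acid and retinol binding protein, stood at 7357, 5960 and 5580 FPKM, rank 32 of all genes.

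Smaller tissues gave smaller values. Pharynx markers held 0.0294 ± 0.00977% of the counts with 11 of 16 detected, led by the gland gene phat-4 at 82.2 ± 14.5 FPKM. The pharyngeal myosin myo-1 had 4.28, 5.35 and 15.6 FPKM, highest in replicate 3. Epidermis markers held 0.0490 ± 0.0120% with 11 of 17 detected, led by the transcription factor lin-26 at 39.7 ± 8.33 FPKM. Gonadal sheath and spermatheca markers were detected for 9 of 10 genes, led by the filamin fln-1 at 33.4, 40.1 and 55.0 FPKM. The excretory channel gene aqp-8 had 39.2, 8.7 and 20.3 FPKM.

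Neuron markers held 0.0372 ± 0.00325% of the counts (SD, n = 3), with 10 of 18 detected. Synaptobrevin, snb-1, was the highest with 233, 253 and 254 FPKM. Neuropeptide genes were more widely detected, in 92 cases, and nlp-77 reached 1361, 964 and 1055 FPKM. Of the 11 transmitter markers 4 were detected. The tyrosine decarboxylase tdc-1 and the tyramine beta-hydroxylase tbh-1, which make tyramine and octopamine and are also expressed in the gonadal sheath, led with 40.2 ± 12.3 and 35.9 ± 2.50 FPKM. The GABA synthesis gene unc-25 had 3.29 ± 0.875 FPKM and the acetylcholine transporter gene unc-17 had 1.83 ± 0.545 FPKM. The serotonin synthesis gene tph-1 was at 0.0300 FPKM in each library, which is 1 count.

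**Figure D3:**
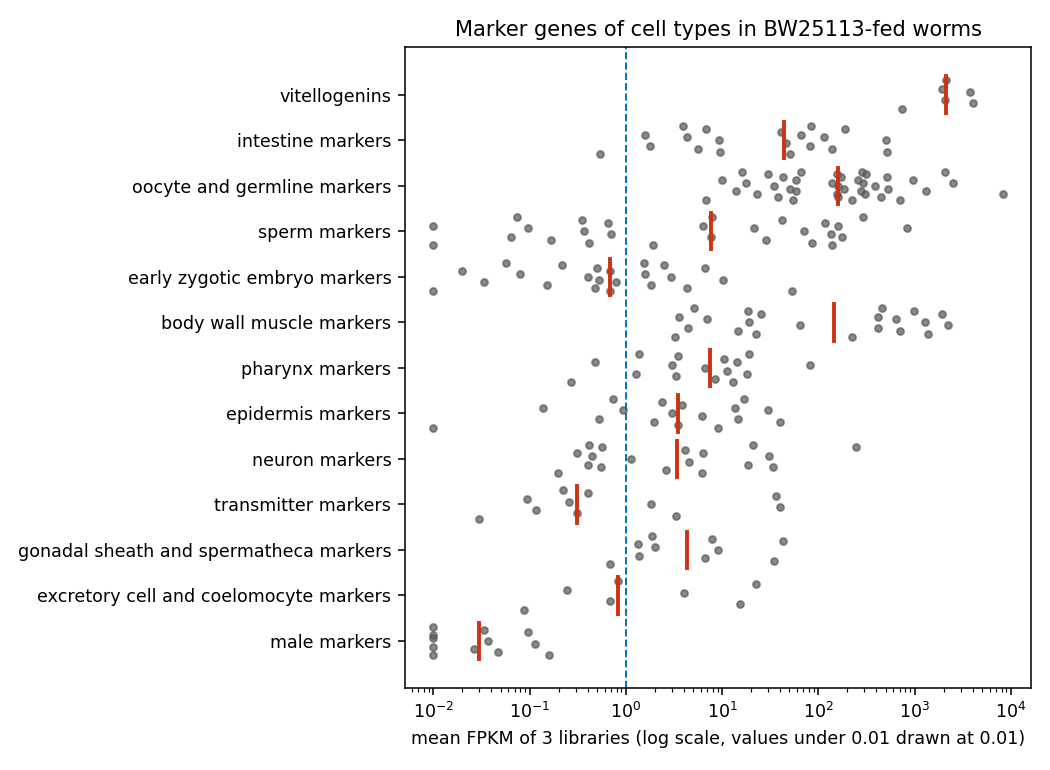
Mean FPKM of the 3 BW25113 libraries on a log axis for each member (grey points) of 13 marker lists, with values under 0.01 drawn at 0.01, the list median as a red bar and the detection level of 1 FPKM as a dashed line. All vitellogenins, germline and body wall muscle markers lie above 1 FPKM, and all male markers lie below it.

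Large gene families differed in how much of them was seen. Of 1088 chemoreceptor genes, 6 were detected and 641 were at 0 in all libraries, and the highest was sri-40 with 18.7, 32.1 and 24.6 FPKM. Of 261 nuclear hormone receptors, 62 were detected, led by nhr-114 with 22.8, 19.1 and 61.1 FPKM. C-type lectins had 50 of 226 detected, and clec-87 alone reached 1877, 1946 and 1549 FPKM. In the F-box and MATH families 67 of 370 were detected, led by bath-40 with 112, 139 and 133 FPKM. Detoxification families were detected in part, with 17 of 73 cytochromes P450, 25 of 66 UDP-glucuronosyltransferases and 22 of 47 glutathione S-transferases.

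The chromosomes carried unequal loads. Chromosome V held 24.3% of the genes and 14.1% of the counts, with 34.3% of its genes detected, whereas chromosome III held 13.6% of the genes and 20.3% of the counts, with 63.5% detected. Chromosome X held 13.8% of the genes and 12.5 ± 1.2% of the counts (SD, n = 3), of which the vitellogenins were a large part. Its other genes held 7.18 ± 0.305% of all counts, with the vitellogenins kept in the total. The median level of detected genes was 5.65 FPKM on X and from 10.8 to 13.02 FPKM on the other 5 chromosomes.

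The spread between the libraries was described for 7192 genes averaging 5 CPM or more, which held 99.1% of the counts. The median SD of log2 CPM was 0.32, with 5th and 95th percentiles of 0.08 and 0.75. A median coefficient of variation of 21.9% stood against 4.32% from counting alone, and 6926 genes, or 96.3%, varied by more than their counting error. The median SD was near 0.32 from the lowest to the middle levels and 0.34 above 1000 CPM. A range of at least 2-fold was found for 1401 genes, or 19.5%, and of at least 4-fold for 108 genes, or 1.5%.

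Replicates 1 and 3 were the least alike. They lay at least 2-fold apart in 1147 genes, against 275 genes for replicates 1 and 2 and 447 for replicates 2 and 3. Across these genes, which are not independent, Spearman's rho of log2 CPM was 0.89 for replicates 1 and 3, 0.95 for 1 and 2 and 0.94 for 2 and 3. The 200 genes of largest SD, 2.78% of the genes considered, were highest in replicate 1 in 118 cases, in replicate 3 in 58 and in replicate 2 in 24. Replicate 3 was the lowest for 129 of them. The order replicate 1 above 2 above 3 held for 110 of the 200, or 55.0%, and for 20.8% of all genes considered. The last genes inside the 200 were lec-6 and ets-6 and the first outside was hpr-9, all 3 with an SD of 0.88.

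At the head of this ranking stood 3 genes listed at 0 in 1 library. The mitochondrial ribosomal protein gene mrps-16 had 33.1, 0 and 3.44 CPM, F59E12.15 had 0, 7.75 and 11.2 CPM, and F48C1.6 had 1.85, 13.3 and 0 CPM. Against the limit of 3 counts in the library at 0, the highest library was at least 228-fold, at least 81.4-fold and at least 111-fold higher. The counts of all 3 genes were not whole numbers, and how reads were shared out there was not tested.

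Next came genes of the cuticle, with the same order in each. The collagen col-74 had 44.0, 12.8 and 0.320 CPM, col-165 had 62.3, 20.3 and 0.520 CPM, and the cuticlin gene cut-3 had 21.2, 4.98 and 0.160 CPM, which is 461, 103 and 4 counts. Another cuticlin gene, cut-2, had 252, 87.6 and 17.7 CPM. Replicate 1 was the highest and replicate 3 the lowest for each of the 4. Counts were whole for the first 3 of these and not for cut-2.

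**Figure D4:**
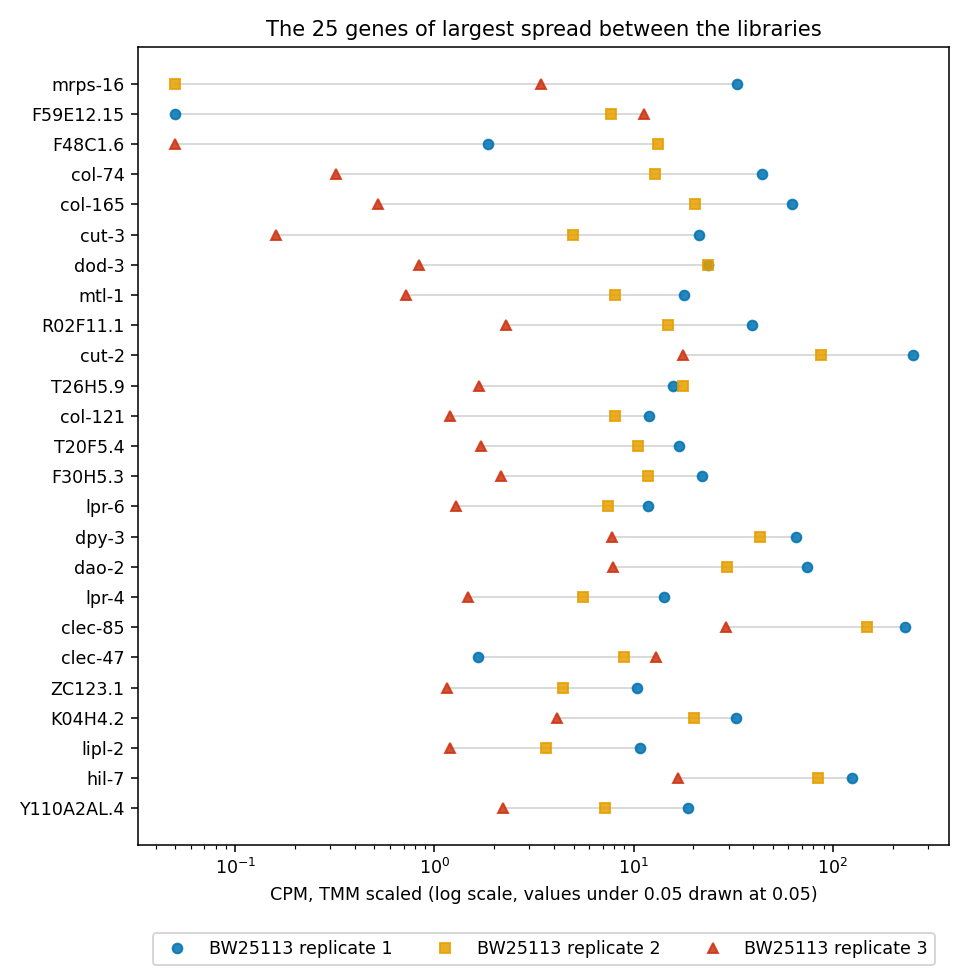
TMM-scaled CPM, on a log axis with values under 0.05 drawn at 0.05, in each BW25113 library for the 25 genes of largest SD of log2 CPM, joined by a grey line per gene. Replicate 1 is highest in 21 of the 25 and replicate 3 lowest in 22, against 31.6% and 37.6% of all genes averaging 5 CPM or more.

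Genes of moulting and of the apical matrix were spread far more than most. This list, like the others, was chosen with earlier results of these data known, so its contrast with all genes is a description only. Of the 19 members with at least 5 CPM, 11, or 57.9%, were among the 200, 9 had a range of at least 4-fold and 17 of at least 2-fold, against 2.78%, 1.5% and 19.5% of all genes considered. Their median log2 deviation was 0.74, 0.14 and -0.95 in replicates 1, 2 and 3. Furrow collagens, which form the rings of the cuticle, were prominent here. For dpy-3 the values were 65.5, 43.4 and 7.80 CPM, for dpy-7 they were 33.99, 19.6 and 4.76 CPM, and for dpy-2 they were 22.4, 12.4 and 3.28 CPM.

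The collagens dpy-17 (chromosome III, 5107330 to 5108491), with 508, 273 and 65.4 CPM, and sqt-3 (chromosome V, 12352745 to 12354320), with 1041, 553 and 157 CPM, were abundant and had the same order. So did the apical matrix genes noah-1, with 35.2, 26.8 and 9.64 CPM, and lpr-3, a lipocalin, with 31.8, 21.8 and 6.88 CPM. In all, 13 of the 19 genes had the order replicate 1 above 2 above 3, against 20.8% of all genes considered.

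The other 6 were highest in replicate 3. Among them were the body shape collagens dpy-13, with 52.2, 21.4 and 105 CPM, and rol-8, with 10.4, 4.59 and 13.4 CPM. The nuclear receptor nhr-23, which drives gene expression for the moult, had 16.9, 28.2 and 48.2 CPM, the exact reverse of the furrow collagens.

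**Figure D5:**
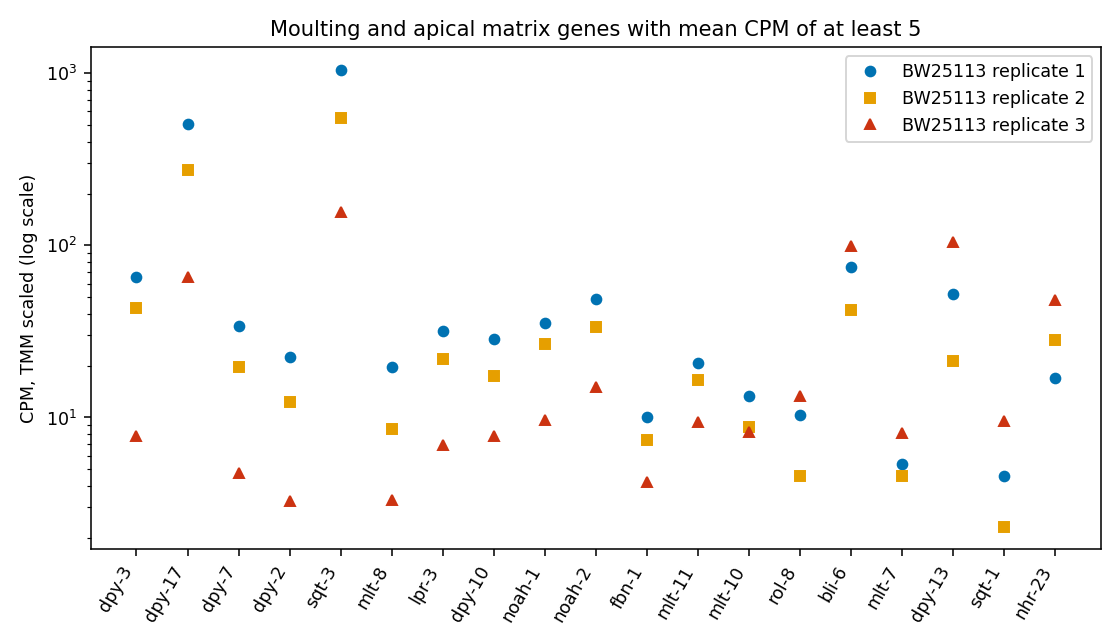
TMM-scaled CPM on a log axis of the 19 moulting and apical matrix genes that averaged 5 CPM or more, with 1 marker per BW25113 library. For 13 genes replicate 1 is highest and replicate 3 lowest, and for the other 6, dpy-13 and nhr-23 among them, replicate 3 is highest.

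The collagens as a family were uneven. Their list shares members with that of moulting and the apical matrix, so the lists are not separate observations. Of 90 with at least 5 CPM, 31, or 34.4%, were among the 200 most spread genes, and 61 had a range of at least 2-fold. Genes named col made up 21 of the 200. The most common order was replicate 3 above 1 above 2, in 43 of the 90, or 47.8%, against 7.95% of all genes considered. The next was replicate 1 above 2 above 3, in 21, or 23.3%, which was near the 20.8% of all genes considered. In the first set were dpy-4, with 70.9, 37.2 and 154 CPM, and col-49, with 5.93, 2.27 and 16.2 CPM. The counts of both were not whole, nor were those of dpy-13 and col-94 in this set, whereas those of col-149 and col-175 were. Collagens that share reads do not stand as separate measurements, so the number of genes in this order may overstate the agreement. Other collagens were among the steadiest genes of all. Of the 10 smallest SDs among the 1064 genes with at least 100 CPM, 4 belonged to collagens, and col-178 came first with 5364, 5350 and 5286 CPM. The others were act-3, the glutamate dehydrogenase gdh-1, F21F3.6, dct-16, the folate transporter gene folt-2 and the proteasome subunit gene pbs-3. The counts of these 4 collagens, act-3 and dct-16 were not whole.

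Uneven genes outside the cuticle included several of defence, metal binding and metabolism. The metallothionein mtl-1 had 17.9, 8.08 and 0.720 CPM and dod-3 had 23.6, 23.6 and 0.840 CPM, lowest in replicate 3. The lectin clec-85 had 231, 148 and 29.3 CPM and the lysozyme lys-7 had 84.2, 55.5 and 12.4 CPM. The glyoxylate cycle gene icl-1, which lets worms build sugar from fat, had 844, 480 and 166 CPM, and the linker histone hil-7 had 124, 84.2 and 16.7 CPM. The order was the same in each. By contrast pud-1.1 peaked in replicate 2, with 486, 1166 and 204 CPM. The kinetochore genes hcp-1 and hcp-4 peaked in replicate 3, with 48.6, 100.1 and 178 CPM for hcp-1 and 24.5, 51.4 and 101 CPM for hcp-4. Of the 5 genes named hcp with at least 5 CPM, only these 2 were among the 200 most spread.

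Several lists had most of their members lowest in replicate 3. After TMM scaling, lysozymes and saposin-like proteins were lowest in replicate 3 for 17 of 18 genes with at least 5 CPM, C-type lectins for 28 of 36, antioxidant enzymes for 11 of 12 and core and linker histones for 14 of 16, where 37.6% of all such genes were. The metal and haem homeostasis list, which holds mtl-1, was lowest there for 5 of 10, with median log2 deviations from the mean of the libraries of -0.01, 0.00 and 0.00. The peroxiredoxin prdx-2 had 1551, 1675 and 752 CPM. Gonadal sheath and spermatheca markers were highest in replicate 3 for 5 of 5 genes, as were 40.4% of all genes considered. The part of the germline, sperm and gonad markers, which also differed between the libraries, in the spread of other genes was not tested.

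The genes commonly used as qPCR references were, by their median, only somewhat steadier than all genes considered. Their median SD of log2 CPM was 0.25, against a median of 0.32 and a 25th percentile of 0.20 over all genes considered. A range of 2-fold or more was found for 0 of 11, against 19.5% of all genes considered. Of the references, ama-1, the large subunit of RNA polymerase II, had 144, 129 and 121 CPM (SD of log2 CPM 0.13), and cdc-42 had 73.2, 93.7 and 89.5 CPM (SD 0.19). The least steady was pmp-3, with 29.8, 47.2 and 59.1 CPM (SD 0.50), lowest in replicate 1. Its SD was above the 75th percentile of all genes considered, 0.47.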

How the data were processed

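RNA of whole adult worms was sequenced in 6 libraries, of which the 3 labelled as fed E. coli BW25113 were used. The deposited value of a gene, a read count per the file headers, was treated as an estimated count, since not all values were whole. In each library 91.4% to 92.2% of them were. Each gene's FPKM was also deposited by the authors. The submitters' processing notes name the build WBcel235. How reads were aligned, counted and assigned to a strand is not given in the sources used here, and overlapping, antisense and near-identical genes may share reads. The depth was 22330178 to 22493245 estimated counts.

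Counts were scaled with TMM factors of 0.971, 0.926 and 1.11 (edgeR 4.0.16, R 4.3.3), and log2 CPM used a prior count of 2. Spread was taken over genes averaging 5 CPM or more. On simulated counts of 18811 genes, 177 of 200 genes given a high spread, or 88.5%, were among the 200 most spread. The simulated CV was 80% for these 200 and 10% for the other genes, whereas the median CV in the real libraries was 21.9%. The simulation therefore does not measure how reliable the real 200 are. With 1 group of 3 libraries no test was run. The length implied by FPKM and counts was a median of 49.0 bases under the annotated exon length over 2683 genes. The difference was 45 to 53 bases for 38.4% of these genes, and for 431 the implied length was the longer. Coordinates came from RefSeq, where 18799 genes were matched. Exon lengths and exon numbers came from Ensembl release 115 of WBcel235. The alternatives were other scalings (size factors of DESeq2 1.42.0, library size), filters, detection thresholds and units, and each library left out. The naming rule allowed the 25 genes highest by FPKM, by share and by spread, the 10 steadiest, the highest and the most spread member of each list, and all members of 6 short lists (vitellogenins, male, adult collagen, larval timing, transmitter and qPCR reference genes), of which the text names a part. Other genes named were chosen after their values were seen. The members and lists were chosen with earlier results of these data known, and list patterns were also matched to RefSeq symbols after seeing the files.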

Additional observations from a re-analysis of the deposited data

How the results depend on the processing

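Of the main results, 58 recomputed values stayed near the reported one, 9 moved and 0 reversed. Near means within 1.5 times for counts of genes and for the median spread, and within 1 SD between libraries for shares. Shares and counts of genes cannot reverse. A mean share also cannot move by 1 SD when 1 of 3 libraries is left out, so those outcomes were fixed in advance. The sign changes of list medians given below were not counted as reversed. By summed FPKM the 100 most abundant genes held 53.5% rather than 46.7%, the vitellogenins 1.41% rather than 7.21% and the ribosomal proteins 38.7% rather than 23.2%. A threshold of 5 FPKM left 5785 detected genes. The count of genes with a range of at least 4-fold was 108 at a mean of 5 CPM, 320 at 1 CPM, 43 at 20 CPM and 853 with no filter. It was 79 for genes with whole counts alone, an alternative chosen after seeing the data, as was a ranking by CPM per kilobase of exons, which kept 94 of the first 100 genes. Leaving out 1 library gave 12 to 83 such genes: 12 without replicate 3, 49 without replicate 1 and 83 without replicate 2, where 2 libraries are compared in place of 3. The top 100 by FPKM kept 97 to 98 genes when 1 library was left out. Scaling by library size moved the median of all genes, replicate 1 minus replicate 3, from -0.05 to -0.24 (log2), and size factors of DESeq2 to -0.11. Under library size alone the medians of 7 lists changed sign, each by little: actins and tubulins, chaperones, the proteasome, the vacuolar ATPase, UDP-glucuronosyltransferases, F-box and MATH genes and qPCR reference genes. The ribosomal, collagen, vitellogenin and matrix lists kept theirs. No paired analysis was possible because only 1 group was described. With 3 libraries, counting error was small against the spread for most genes above 5 CPM, and genes near 3 counts were not resolved.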
